A study of Mus musculus with 2 samples.

Results

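The genes described here make the lipids of a cell, namely cholesterol and other sterols, fatty acids and phospholipids, or store and use fatty acids. The 43 genes were listed by symbol with no cut on their levels, though earlier results of these data were known. All 43 were found among the 27998 genes of the count tables. They were followed in alveolar type 2 (AT2) cells, the surfactant-making cells of the lung, and, apart from them, in a small set of cells with high keratin levels, in 2 single-cell RNA libraries of sorted lung epithelial cells from male mice. One library came from mice labelled WT and the other from mice labelled IP-/- (IPKO), which lack the prostaglandin I2 receptor according to that label. No treatment, age or strain was given in the sources used here, nor how many mice went into a library. Both libraries were sorted for EpCAM and against CD31, CD34, CD45, CD24 and Sca-1, so that endothelial, blood and other lung cells should be few.

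Cholesterol is built from acetyl-CoA through mevalonate, squalene and lanosterol, and its genes are switched on together by the transcription factor SREBP2 when membrane sterol is low. SREBP1 does the same for fatty acid genes, while INSIG proteins hold both factors back in the endoplasmic reticulum. AT2 cells use new fatty acids for the phosphatidylcholine of surfactant, which is made through CDP-choline, and can hold spare fatty acids as triglyceride in lipid droplets. The genes were therefore read in separate arms: 14 sterol synthesis genes, 11 fatty acid synthesis genes, 9 phospholipid and glycerolipid genes and 6 genes of droplets and fatty acid use, with Srebf1, Srebf2 and Insig1 as 3 regulators.

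Each value below is CPM, the unique molecular identifiers (UMIs) of a gene scaled to a total of 1000000 UMIs for a class of cells in a library. The kit tags 1 end of each transcript, so a long gene does not gather more UMIs than a short one for its length alone. Levels of different genes are therefore given without a length correction. Whether the tagged end is counted equally well in each gene was not tested. AT2 cells were cells with Sftpc, the surfactant protein C gene, at 10% or more of their UMIs that were not keratin-high (below), and numbered 6213 in the library labelled WT and 7267 in the library labelled IPKO. They held 118275842 and 128065291 UMIs. Keratin-high cells were the 5% of cells with the largest share of Krt7, Krt8, Krt18 and Krt19, after cells with over 1 UMI of endothelial, immune, mesenchymal or ciliated markers had been barred. They numbered 227 and 225, with 3819683 and 3246367 UMIs. Another 203 and 317 cells had as large a keratin share but were barred by these markers. Those of them with Sftpc at 10% or more stayed among the AT2 cells, from which no cell was barred by markers. With 1 library per genotype there was no replicate, no test between libraries was possible, and every interval below is a 95% interval for counting error only.

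The count of the targeted gene went against the labels. Ptgir, which encodes the prostaglandin I2 receptor, had 0 UMIs in AT2 cells of the library labelled WT, which allows a level of up to 0.0254 CPM, and 307 UMIs (2.40 CPM) in the library labelled IPKO. Since the kit reads 1 end of the transcript and the sources used here do not give the deleted part of the gene, this count cannot settle the genotype, and each direction below is only one between the library labelled IPKO and the library labelled WT. AT2 cells differed in other ways as well. Early response genes such as Fos and Jun summed to 3116 CPM in the library labelled WT and 5476 CPM in the library labelled IPKO, heat shock genes to 1705 and 3018 CPM, and the median mitochondrial share was 5.26% and 3.91% of UMIs. The 10 AT2 markers summed to 301731 and 299186 CPM. Most of that sum was Sftpc, the gene by which AT2 cells were chosen in both libraries, so its closeness says little about the other markers. In AT2 cells 5 lipofibroblast and adipocyte markers summed to 79.5 CPM (library labelled WT) and 70.7 CPM (library labelled IPKO). Of these 5, only the adipocyte gene Adipoq was at 0 in both libraries. Among the kept cells, 16 cell barcodes were found in both libraries.

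Promoters of 4 members are shown because the sterol and fatty acid genes share a route of control through their promoters, and these 4 come from the 3 synthesis arms. Sequences are the 250 bases before the transcription start in RefSeq's table for GRCm38.p6, 5′ to 3′ on the gene's own strand. Capitals mark a sterol regulatory element, written TCACNCCAC, or the NF-Y motif CCAAT, which reads ATTGG when it lies on the opposite strand. Hmgcs1 (chr13:119690101-119690350, plus strand) and Pcyt1a (chr16:32430671-32430920, plus strand) were the members that held the first motif, and of the 3 starts listed for Pcyt1a the one farthest upstream is shown. Mvd (chr8:122443423-122443672, minus strand) and Fasn (chr11:120824548-120824797, minus strand) held only the second, which in Fasn overlaps itself on both strands.
Hmgcs1: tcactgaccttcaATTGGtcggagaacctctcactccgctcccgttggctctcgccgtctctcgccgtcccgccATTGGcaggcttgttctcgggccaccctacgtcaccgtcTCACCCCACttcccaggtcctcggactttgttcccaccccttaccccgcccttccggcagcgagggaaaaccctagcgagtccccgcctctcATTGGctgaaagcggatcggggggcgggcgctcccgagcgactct
Mvd: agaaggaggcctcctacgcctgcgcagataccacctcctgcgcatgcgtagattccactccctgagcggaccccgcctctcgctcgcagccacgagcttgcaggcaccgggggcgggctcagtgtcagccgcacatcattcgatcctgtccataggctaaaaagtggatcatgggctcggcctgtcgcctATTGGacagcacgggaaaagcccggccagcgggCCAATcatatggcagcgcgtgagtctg
Fasn: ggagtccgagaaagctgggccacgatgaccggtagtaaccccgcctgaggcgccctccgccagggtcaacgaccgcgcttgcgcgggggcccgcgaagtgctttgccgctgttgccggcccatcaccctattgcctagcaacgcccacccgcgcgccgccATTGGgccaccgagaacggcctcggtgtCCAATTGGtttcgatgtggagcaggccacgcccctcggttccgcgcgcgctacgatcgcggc
Pcyt1a: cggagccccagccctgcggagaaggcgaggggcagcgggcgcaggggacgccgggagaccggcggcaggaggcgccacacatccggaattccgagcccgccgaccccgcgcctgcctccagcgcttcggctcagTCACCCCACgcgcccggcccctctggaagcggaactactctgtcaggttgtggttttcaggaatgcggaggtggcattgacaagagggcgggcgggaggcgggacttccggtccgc

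Promoter windows of 300 bases, from 250 before to 50 after the start, were found for 34 of the 43 members, and both strands were searched. CCAAT was in 26 of these 34 members (76.5%), against 42.3% of the 6589 genes that had a window and reached 5 CPM in AT2 cells and 41.1% of all 27025 genes in the table. It was in 11 of 11 sterol synthesis genes, 3 of 3 regulators, 5 of 8 fatty acid synthesis genes, 5 of 9 phospholipid genes and 2 of 3 droplet genes. TCACNCCAC was in 2 of 34 members (5.88%), against 1.35% of those expressed genes, and lay 137 bases before the start of Hmgcs1 and 116 bases before that of Pcyt1a. The E-box CACGTG was in 7 of 34 members (20.6%), against 12.6%. A match is a run of letters and not a measured binding site. A gene with several listed starts also has more windows in which a match can fall.

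In AT2 cells the 43 genes were unevenly expressed, and 1 gene held about as many UMIs as all others together. The members summed to 15650 CPM in the library labelled WT and 13806 CPM in the library labelled IPKO. Scd1, the stearoyl-CoA desaturase that puts the double bond into saturated fatty acids, made up 52.6% and 45.5% of these UMIs and ranked 10th and 11th of all genes by level. Fabp5, a fatty acid carrier of the cytoplasm, followed with 10.2% and 13.6%. Fasn, the fatty acid synthase, and Elovl1, an elongase of long fatty acids, were next at 824 and 743 CPM in the library labelled WT and 777 and 716 CPM in the library labelled IPKO.

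**Figure D1:**
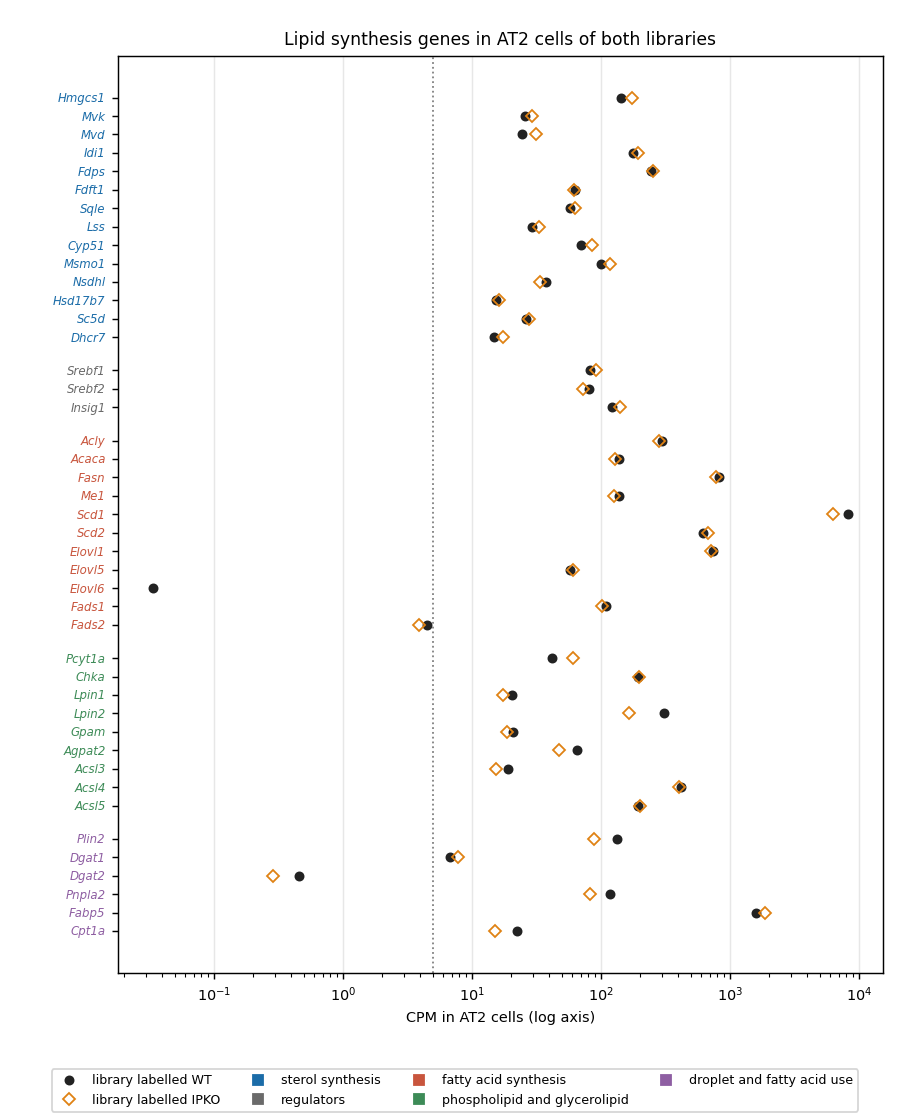
Level of each of the 43 genes in AT2 cells, in CPM on a log axis, with filled circles for the library labelled WT and open diamonds for the library labelled IPKO, and gene names coloured by arm. The dotted line is 5 CPM, and Elovl6 has no diamond because it had 0 UMIs in the library labelled IPKO. Scd1 stands at 8238 and 6286 CPM, above every other member.

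In AT2 cells 3 members were too low to compare, while relatives of them with similar work were well expressed or at least measurable. Elovl6, which lengthens palmitate, had 4 UMIs in AT2 cells of the library labelled WT and 0 in the library labelled IPKO. Fads2, the delta-6 desaturase, was at 4.46 and 3.89 CPM, while Fads1, which acts later on the same polyunsaturated fatty acids, was at 110 and 103 CPM. Dgat2, a triglyceride synthase, was at 0.457 and 0.289 CPM, while Dgat1 was at 6.81 and 7.85 CPM. The other 40 members had a mean of at least 5 CPM in each comparison below. As a reference, 102 and 250 cells with at least 3 UMIs of immune or endothelial markers, Sftpc under 10% and club markers under 5% were summed, a choice made after the data were seen. In them Elovl6 was at 9.55 and 1.98 CPM (5 and 3 UMIs) and Dgat2 at 7.64 and 6.59 CPM (4 and 10 UMIs), above the AT2 cells. Fads2 was at 3.82 and 1.98 CPM (2 and 3 UMIs) in them, below the AT2 cells. In the same cells Scd1 was at 397 and 257 CPM and Sftpc at 4617 and 4183 CPM, against 212198 and 209989 CPM of Sftpc in AT2 cells.

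Between the libraries, most members stood close together in AT2 cells. The 14 members of the sterol arm leaned higher in the library labelled IPKO, a lean that 7 other sterol synthesis genes, given below, did not share. Members of the phospholipid and droplet arms and Scd1 were lower in that library. Ratios are given as log2 of the level in the library labelled IPKO over that in the library labelled WT, and a member was counted when its log2 ratio was 0.32 or more in either direction, a mark that stands for a gain of 25% or a loss of 20%. By that rule 2 members were higher and 6 lower of the 40, where 8.68% and 4.72% of 8495 genes at 5 CPM or more were higher and lower. The count of higher members was 1 with scaling by median of ratios or TMM and 5 in the 50% of AT2 cells with the least early response RNA. The median ratio of all these genes was 0.06. Counting intervals left out 0 for 38 of 40 members, all but Fdft1 and Hsd17b7, because the AT2 cells held so many UMIs, and such an interval says nothing about the spread between mice.

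**Figure D2:**
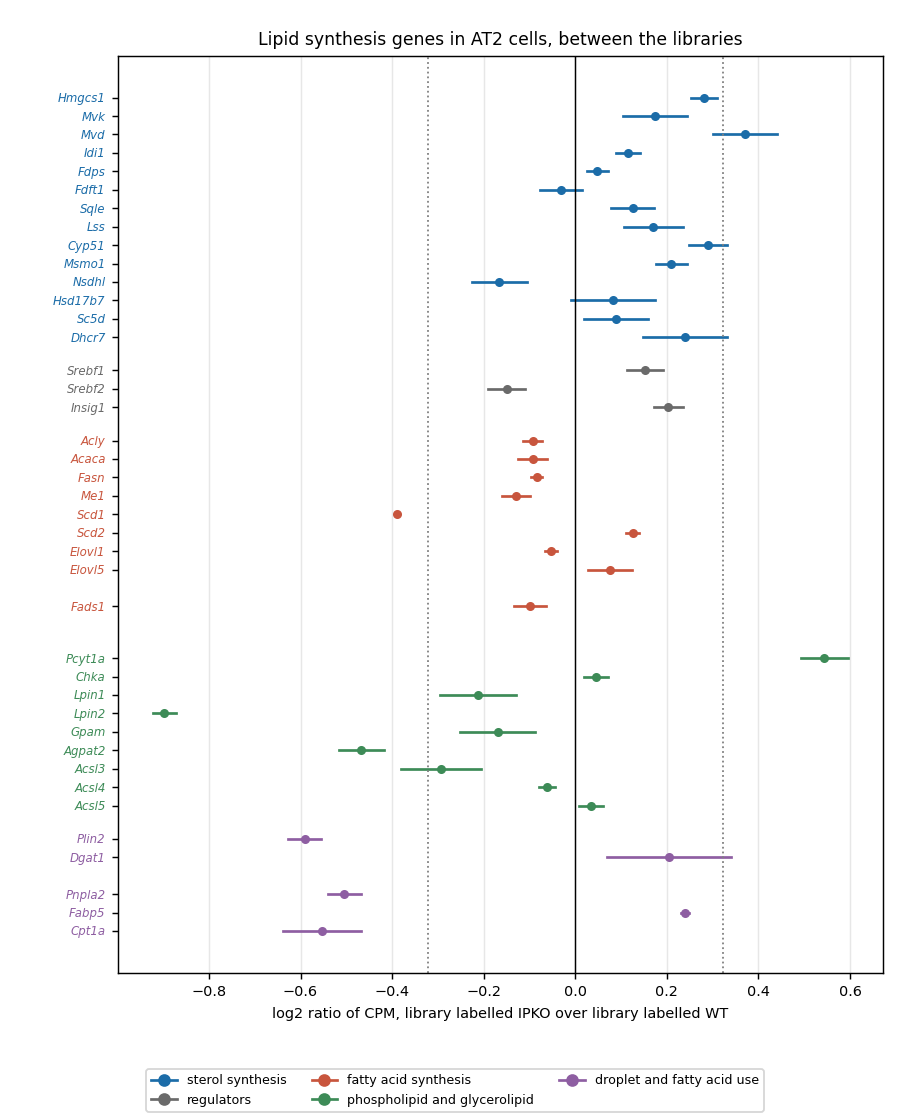
The log2 ratio of CPM in AT2 cells, library labelled IPKO over library labelled WT, for the 40 members at 5 CPM or more, with 95% counting intervals as bars and dotted lines at a log2 ratio of 0.32 either way. Lpin2 lies farthest to the left at -0.90 and Pcyt1a farthest to the right at 0.54, and 12 of 14 sterol synthesis genes lie to the right of 0. The median over all genes at 5 CPM or more, not drawn, was 0.06.

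The sterol arm summed to 1033 CPM in AT2 cells of the library labelled WT and 1138 CPM in the library labelled IPKO. Its median ratio was 0.15, with 12 of 14 members above 0. The median over all genes at 5 CPM or more was itself above 0, at 0.06, so a place above 0 is common. Over the scalings and cell filters tried over all AT2 cells the arm's median ran from 0.08 to 0.22. The ratio was larger within some groups of cells divided by early response genes, which are given below. Fdps, which makes farnesyl diphosphate and was the highest member of the arm, was at 244 and 253 CPM, a ratio of 0.05. Mvd, which decarboxylates mevalonate diphosphate, was at 24.5 and 31.6 CPM, a ratio of 0.37 (0.30 to 0.44), and was the only sterol gene counted. It dropped under the mark when libraries were scaled by median of ratios or TMM, with a lowest ratio of 0.30. Hmgcs1, which makes HMG-CoA at the head of the pathway, was at 144 and 174 CPM, and Cyp51, which demethylates lanosterol, at 70.5 and 86.1 CPM. Both lay just under the fold, at 0.28 and 0.29. Nsdhl and Fdft1 were the members below 0, at -0.17 and -0.03.

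The 3 regulators did not share a direction. Srebf1, which encodes SREBP1, was at 82.2 CPM in the library labelled WT and 91.3 CPM in the library labelled IPKO, a ratio of 0.15. Srebf2, which encodes SREBP2, was at 81.4 and 73.4 CPM, a ratio of -0.15. Insig1, itself a target of these factors, was at 123 and 142 CPM, a ratio of 0.20. All 3 stayed under the 0.32 mark. Both factors act as cleaved proteins, which RNA counts do not measure.

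In the fatty acid arm the summed level was 11177 CPM in the library labelled WT and 9163 CPM in the library labelled IPKO, and 1 gene carried the difference. Scd1 was at 8238 and 6286 CPM, a ratio of -0.39, and was the only one of 9 tested members past the mark. The other 8 lay between -0.13 and 0.13. Scd2, a desaturase of the same family, stood on the other side of 0 at 622 and 678 CPM, a ratio of 0.13. Acly and Acaca, which supply acetyl-CoA and malonyl-CoA to Fasn, were at 300 and 281 CPM and at 138 and 130 CPM. Me1, a source of NADPH for the synthase, was at 139 and 127 CPM. The median of the arm was -0.09.

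The phospholipid arm held the lowest and the highest ratio of all members. Lpin2, a phosphatidate phosphatase that makes diacylglycerol, was at 307 CPM in the library labelled WT and 165 CPM in the library labelled IPKO, a ratio of -0.90 (-0.92 to -0.87). Agpat2, which makes the phosphatidate that lipins use, was at 65.4 and 47.3 CPM, a ratio of -0.47 (-0.52 to -0.42). In the other direction, Pcyt1a, which makes CDP-choline and limits the rate of phosphatidylcholine synthesis, was at 41.6 and 60.6 CPM, a ratio of 0.54 (0.49 to 0.60). Chka, the choline kinase one step before it, was level at 193 and 199 CPM. Lpin1, of the same family as Lpin2, was low at 20.4 and 17.6 CPM, a ratio of -0.21. Acsl4, an acyl-CoA synthetase and the highest member of the arm, was at 421 and 403 CPM, and Acsl5 at 195 and 200 CPM. The remaining members, Gpam and Acsl3, were under 25 CPM and had ratios of -0.17 and -0.29. The median of the arm was -0.17 and ran from -0.24 to -0.01 over the scalings and cell filters tried.

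In the droplet arm the 3 lower genes act in the storage, release and oxidation of fatty acids. The fatty acid carrier Fabp5 and the triglyceride synthase Dgat1 were on the other side of 0. Dgat1 was at 6.81 CPM in the library labelled WT and 7.85 CPM in the library labelled IPKO, a ratio of 0.20 (0.07 to 0.34). Plin2, the coat protein of lipid droplets, was at 132 CPM in the library labelled WT and 87.9 CPM in the library labelled IPKO, a ratio of -0.59 (-0.63 to -0.56). Pnpla2, the triglyceride lipase of droplets, was at 117 and 82.7 CPM, a ratio of -0.50 (-0.54 to -0.47). Cpt1a, which admits fatty acids to mitochondria for oxidation, was at 22.4 and 15.2 CPM, a ratio of -0.55 (-0.64 to -0.47). Fabp5 was at 1592 and 1879 CPM, a ratio of 0.24, which is the reason the arm's summed level was higher in the library labelled IPKO (1872 and 2073 CPM) while its median was -0.50. Immune markers summed to 1.67 and 9.70 CPM in AT2 cells of the libraries labelled WT and IPKO. The immune or endothelial marker cells described above had Plin2 at 307 and 151 CPM and Cpt1a at 101 and 40.9 CPM. The part of such cells in these results was not tested.

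Among 67 other genes of the same pathways that were found in the count tables, 2 were higher, Thrsp included, and 6 lower by a log2 ratio of 0.32 or more in AT2 cells, of 52 at a mean of 5 CPM or more. Of all genes at that level, 8.68% were higher and 4.72% lower. Of 7 other sterol synthesis genes 2 were lower. Together these 7 summed to 555 CPM in the library labelled WT and 467 CPM in the library labelled IPKO, a ratio of -0.25. Their median ratio was -0.08, with 4 below 0 and 3 above, so the lean of the sterol arm did not extend to them. Pmvk, phosphomevalonate kinase, was at 266 CPM in the library labelled WT and 192 CPM in the library labelled IPKO, a ratio of -0.47, and the sterol reductase Tm7sf2 was at 13.3 and 10.5 CPM (-0.35). Ggps1, near the upper end of that list, was at 8.13 and 8.61 CPM (0.08). The sterol exporter Abca1 was at 12.5 and 7.71 CPM (-0.69) and Insig2 at 40.1 and 29.3 CPM (-0.45), both counted as lower among 9 genes of sterol regulation and uptake, where Nr1h2, an oxysterol receptor, was at 28.3 and 30.0 CPM. Among 8 other fatty acid genes Thrsp was at 3.26 and 7.38 CPM (1.18), and reached the mean of 5 CPM only through the library labelled IPKO, so that its call as higher carries no weight. Hsd17b12, an enzyme of the elongation cycle, was lower, at 54.9 and 42.1 CPM (-0.38). Elovl7 had a ratio of -0.29 and Mid1ip1, a partner of acetyl-CoA carboxylase, one of 0.04. Among 18 other phospholipid genes Acsl1 was higher, at 7.31 and 9.83 CPM (0.43), none was lower, and Cept1, Agpat3 and Ptdss2 lay at -0.21, -0.13 and 0.15. Among 10 other genes of droplets and fatty acid use, the hormone-sensitive lipase Lipe was lower, at 12.1 and 8.50 CPM (-0.51), and Acadl, Acadm and Abhd5 lay at -0.30, 0.08 and 0.10.

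Since early response genes differed between the libraries, AT2 cells of both libraries were divided together into 5 equal groups by their share of these genes, and the members were read in each group. The group with the least held 1822 cells of the library labelled WT and 874 of the library labelled IPKO, and the group with the most held 492 and 2204. Sterol synthesis was lower where early response genes were higher, at 1175 CPM in the first group and 857 CPM in the last in the library labelled WT, and at 1517 and 1031 CPM in the library labelled IPKO. The log2 ratio of the summed sterol arm between the libraries was 0.37 in the first group, which is past the 0.32 mark, and ran from 0.15 to 0.32 in the other 4, none of which reached the mark, against 0.14 over all AT2 cells. Scd1 behaved alike, from 9351 to 6769 CPM and from 8862 to 5499 CPM. Its ratio between the libraries was -0.08 in the first group and between -0.35 and -0.30 in the other 4, and in the 50% of AT2 cells with the least early response RNA it was -0.23, short of the mark. Lpin2 kept a ratio between -1.09 and -0.87 in all 5 groups, Plin2 one between -0.64 and -0.49, and Pnpla2 one between -0.60 and -0.42. Pcyt1a stayed between 0.36 and 0.59. Cpt1a differed least in the first group (-0.32) and most in the last (-0.98), where it was at 31.8 CPM in the library labelled WT and 16.2 CPM in the library labelled IPKO.

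**Figure D3:**
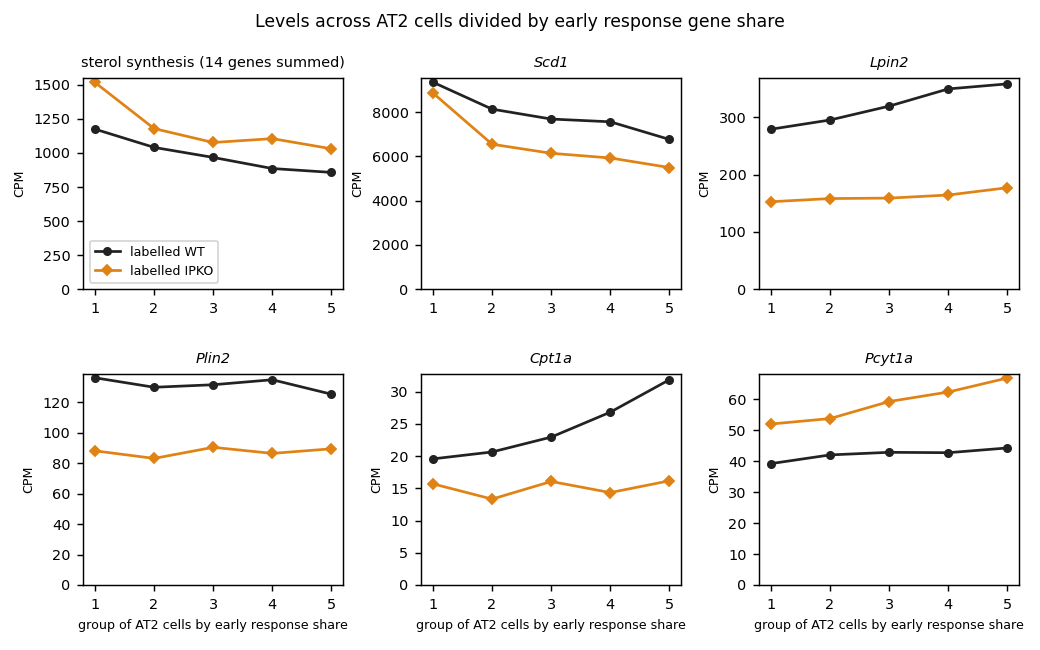
Level in CPM of the sterol arm (14 genes summed) and of 5 members in AT2 cells divided into 5 equal groups by their share of early response genes, from least (1) to most (5), with borders set over both libraries, filled circles for the library labelled WT and diamonds for the library labelled IPKO. Lpin2, Plin2 and Pcyt1a keep the libraries apart in every group, while Scd1 differs little in the first, at 9351 and 8862 CPM.

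By mitochondrial share the same members were read in 2 ranges that hold nearly all AT2 cells. At 0 to 5% (2592 and 5723 cells) Lpin2 had a ratio of -0.86 and at 5 to 10% (3460 and 1465 cells) one of -0.82. Scd1 had ratios of -0.24 and -0.43, Plin2 of -0.56 and -0.59, Cpt1a of -0.48 and -0.49, and Pcyt1a of 0.60 and 0.51. Only Scd1 of these was short of the 0.32 mark in a range. Depth per cell was also alike, with median UMIs per AT2 cell of 18337 and 17087.

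Keratin-high cells had less of many fatty acid and sterol genes than AT2 cells of the same library. Lower in the library labelled WT were 8 of 9 fatty acid, 7 of 14 sterol, 4 of 9 phospholipid and 1 of 5 droplet genes, and in the library labelled IPKO 8, 12, 2 and 1 of these. Differences between the arms were not tested. Of 40 members, 17 were lower by a log2 ratio of 0.32 or more in both libraries and 0 were higher in both. Over 8313 genes the shares were 4.92% lower and 12% higher in both. In the library labelled WT alone 22 members were lower and 0 higher, against 13.5% and 25.2% of 8475 genes, and in the library labelled IPKO 24 were lower and 1 higher, against 9.19% and 19.3% of 8616 genes. The lower members took in 7 of 9 tested fatty acid synthesis genes and 7 of 14 sterol synthesis genes, and 1 each of the regulators, the phospholipid arm and the droplet arm.

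These cells are the upper end of a continuous score and not a cell type. Most of them, 209 of 227 and 198 of 225, also had Sftpc at 10% or more of UMIs, and 35 and 61 of them lay within 10% of the border, which was a keratin share of 0.0792% of UMIs. The 12 transitional markers, 3 of which are keratins used to choose the cells, summed to 5395 CPM in keratin-high and 1272 CPM in AT2 cells of the library labelled WT, and to 4615 and 1394 CPM in the library labelled IPKO. AT2 markers, Sftpc among them, summed to 271326 and 269464 CPM, below the levels in AT2 cells given above. The choice of cells bears on this gap, since Sftpc at 10% or more was required of AT2 cells and not of keratin-high cells. Markers of club cells, secretory cells of the airway, summed to 14238 CPM in keratin-high and 1242 CPM in AT2 cells of the library labelled WT, and to 1859 and 398 CPM in the library labelled IPKO. The part of airway cells in the results on keratin-high cells was not tested. Immune markers were at 0.524 CPM and at 0 in keratin-high cells. Values this low follow from the rule that barred cells by these markers.

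Scd1 and Fabp5 showed the largest gaps among members with high levels. Scd1 was at 8238 CPM in AT2 and 3956 CPM in keratin-high cells of the library labelled WT, and at 6286 and 2925 CPM in the library labelled IPKO. Its log2 ratios of keratin-high over AT2 cells were -1.06 (-1.08 to -1.04) and -1.10 (-1.13 to -1.07). Fabp5 was at 1592 and 579 CPM and at 1879 and 779 CPM, with ratios of -1.46 (-1.52 to -1.40) and -1.27 (-1.33 to -1.21). By these values, each of the 2 genes was less than 1 log2 unit apart between the libraries and more than 1 between the cell classes of each library. The gap between the classes did not stay above 1 in all settings tried. Ratios of Scd1 ran from -1.19 to -0.77 in the library labelled WT and from -1.21 to -0.77 in the library labelled IPKO. Those of Fabp5 ran from -1.59 to -1.04 and from -1.46 to -0.79.

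Most of the fatty acid arm was lower as well. Fasn was at 824 CPM in AT2 and 480 CPM in keratin-high cells of the library labelled WT, and at 777 and 496 CPM in the library labelled IPKO. Elovl1 was at 743 and 387 CPM and at 716 and 436 CPM. Fads1 was at 110 and 57.6 CPM and at 103 and 65.6 CPM. The steps before the synthase were lower too. Acly, which splits citrate to acetyl-CoA, was at 300 and 188 CPM and at 281 and 206 CPM. Acaca, the acetyl-CoA carboxylase, was at 138 and 91.4 CPM and at 130 and 89.6 CPM. Scd2 was at 622 and 396 CPM and at 678 and 463 CPM. Ratios of these 6 genes ran from -0.94 to -0.60 in the library labelled WT and from -0.72 to -0.45 in the library labelled IPKO. Me1 had ratios of -0.27 and -0.35 and Elovl5 of -0.38 and 0.05, so that each passed 0.32 in 1 library. The arm's medians were -0.68 and -0.55, where all genes had medians of 0.09 and 0.08.

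In the sterol arm the 7 lower genes came from early, middle and late steps. Hmgcs1 was at 144 CPM in AT2 and 109 CPM in keratin-high cells of the library labelled WT, and at 174 and 117 CPM in the library labelled IPKO. Mvk, the mevalonate kinase, was at 25.8 and 19.6 CPM and at 29.1 and 21.9 CPM. Idi1, which makes the isoprenoid unit dimethylallyl diphosphate, was at 178 and 127 CPM and at 193 and 124 CPM. Lss, which closes the rings to lanosterol, had 29.5 and 18.8 CPM and 33.2 and 16.9 CPM. Msmo1 and Nsdhl, which act together to remove methyl groups, had 101 and 73.6 CPM with 117 and 73.9 CPM, and 37.6 and 24.1 CPM with 33.5 and 18.2 CPM. Dhcr7, the last reductase, had 14.8 and 7.07 CPM and 17.4 and 10.8 CPM. The arm's medians were -0.34 in the library labelled WT and -0.65 in the library labelled IPKO, and 12 of 14 members passed the 0.32 mark in the library labelled IPKO against 7 of 14 in the library labelled WT. Whether that difference is larger than the spread between mice could not be tested. Mvk passed the fold by little, with -0.25 as its highest ratio in the library labelled WT among the settings tried, and Acly likewise, with -0.28 in the library labelled IPKO when the highest 10% by keratin share were taken. Hsd17b7, a sterol reductase, was level at 0.05 and 0.10.

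Of the regulators, Insig1 was at 123 CPM in AT2 and 72.0 CPM in keratin-high cells of the library labelled WT and at 142 and 88.7 CPM in the library labelled IPKO, with ratios of -0.77 and -0.68. Srebf1 was at 82.2 and 58.1 CPM and at 91.3 and 73.3 CPM, with ratios of -0.50 and -0.32, the second of them just short of 0.32 in size. Srebf2 was nearly level at 81.4 and 79.3 CPM and at 73.4 and 66.5 CPM.

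In the phospholipid arm Gpam, Agpat2, Acsl4 and Acsl5 were lower in the library labelled WT, Gpam and Lpin1 were lower in the library labelled IPKO, and Chka was higher in the latter. Gpam, which starts glycerolipid synthesis, was at 21.0 CPM in AT2 and 7.59 CPM in keratin-high cells of the library labelled WT and at 18.7 and 12.0 CPM in the library labelled IPKO. Chka was at 193 and 209 CPM (0.12) and at 199 and 294 CPM (0.56, 0.47 to 0.66). Pcyt1a was at 41.6 and 47.9 CPM and at 60.6 and 65.9 CPM, with intervals that held 0. Lpin2 was at 307 and 312 CPM and at 165 and 179 CPM, and so differed between the libraries far more than between the cell classes. Acsl4 was at 421 and 332 CPM and at 403 and 326 CPM (-0.34 and -0.31). The arm's medians of -0.25 and -0.26 are not firm in sign, as they ran from -0.37 to 0.02 and from -0.37 to 0.09 over the settings tried. Agpat2 was at 65.4 and 50.3 CPM and at 47.3 and 49.3 CPM. In the droplet arm, Plin2 was at 132 and 121 CPM and at 87.9 and 97.3 CPM, Pnpla2 at 117 and 113 CPM and at 82.7 and 79.2 CPM, and Cpt1a at 22.4 and 19.6 CPM and at 15.2 and 12.9 CPM, each within a log2 ratio of 0.32 of AT2 cells.

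**Figure D4:**
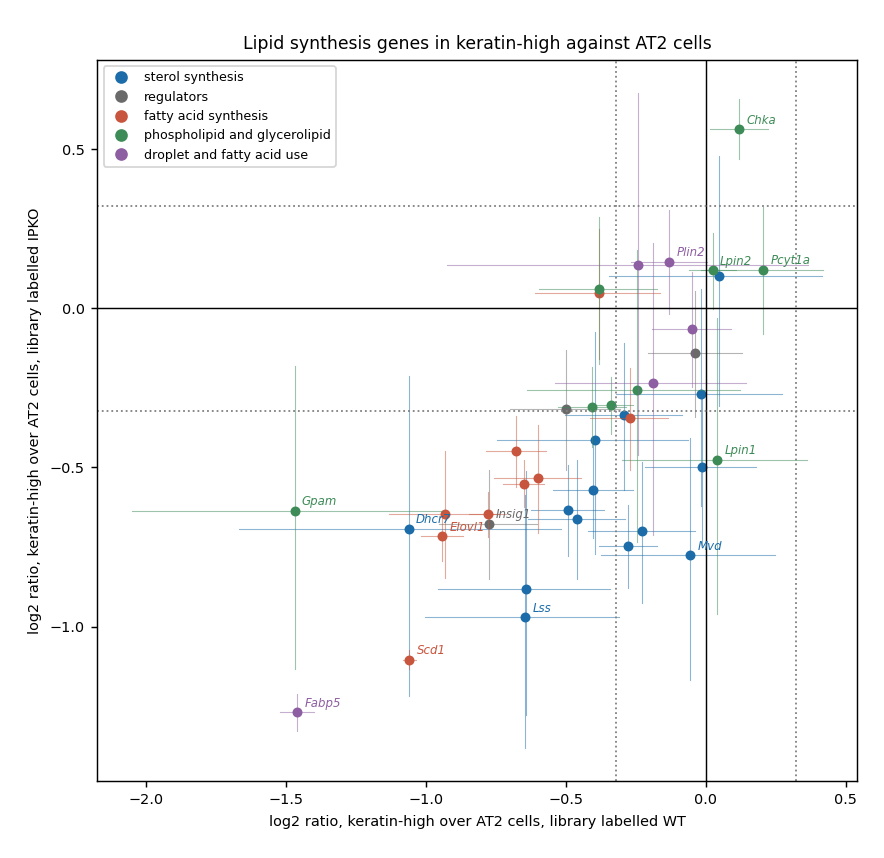
The log2 ratio of keratin-high over AT2 cells for the 40 members, in the library labelled WT on the x axis and the library labelled IPKO on the y axis, with 95% counting intervals as thin lines, colours for the arms and dotted lines at a log2 ratio of 0.32 either way. The 17 members in the lower left are lower in both libraries, with Fabp5 at -1.46 and -1.27 and Scd1 at -1.06 and -1.10, and Chka stands highest at 0.12 and 0.56.

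Between the libraries, keratin-high cells gave 8 members higher and 9 lower of 40, where 19.1% of 8589 genes were higher and 13% lower. The counts were not stable: 5 were higher with a floor of 20 CPM and 4 when Tppp3, Dynlrb2 and Egfl7 did not bar cells, and 5 were lower without the 8% of cells with most UMIs. For 5 of these 17 (Mvd, Nsdhl, Dhcr7, Gpam and Dgat1) the counting interval held 0, since the classes were small. Lpin2 was at 312 CPM in the library labelled WT and 179 CPM in the library labelled IPKO, a ratio of -0.80 (-0.95 to -0.66). Chka was at 209 and 294 CPM, a ratio of 0.49 (0.35 to 0.63). Fabp5 was at 579 and 779 CPM (0.43, 0.35 to 0.51), and Scd1 at 3956 and 2925 CPM (-0.44, -0.47 to -0.40). Fdps was at 202 and 151 CPM (-0.42, -0.59 to -0.26). Mvd was at 23.6 and 18.5 CPM (-0.35, -0.85 to 0.14). Arm medians were -0.11 for sterol synthesis, 0.14 for fatty acid synthesis, -0.03 for phospholipids and -0.31 for droplets, of which the first and the third changed sign among the settings tried (-0.17 to 0.02 and -0.09 to 0.05).

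The other pathway genes of keratin-high cells were set against AT2 cells in the same way. Of all genes, 13.5% were lower and 25.2% higher in the library labelled WT, and 9.19% and 19.3% in the library labelled IPKO. Of 7 other sterol synthesis genes, 3 were lower and 1 higher than in AT2 cells of the library labelled WT, and 5 lower and 0 higher in the library labelled IPKO. Of 9 genes of sterol regulation and uptake, 3 and 2 were lower and 0 higher. Of 7 other fatty acid genes 3 and 4 were lower and 1 higher in each library. Mid1ip1 was at 562 and 323 CPM and at 577 and 387 CPM, while Elovl7, an elongase, was the one higher, at 22.5 and 43.5 CPM and at 18.4 and 27.4 CPM. Of 18 other phospholipid genes 7 and 3 were lower and 2 and 2 higher. Etnk1, the ethanolamine kinase, was at 132 and 77.0 CPM and at 134 and 92.1 CPM. Among the other genes of droplets and fatty acid use, 1 of 11 was lower and 1 higher in the library labelled WT, and 3 of 12 lower and 1 higher in the library labelled IPKO, with Hadhb, of mitochondrial beta-oxidation, highest there at 30.0 and 41.9 CPM.

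Within each library, AT2 cells with many UMIs of one sterol gene also had many of the others. For this description every cell was thinned to 5000 UMIs, which left out 29 and 78 shallower AT2 cells, and cells were ordered by the summed UMIs of the sterol synthesis genes, leaving out the gene being read. The 20% of cells with the most, called sterol-high, and the 20% with the least, called sterol-low, were then compared (1236 cells each in the library labelled WT, 1437 each in the library labelled IPKO). With cells ordered by all 14 genes, the mean of their sum differs by construction. It was 0.991 UMIs in sterol-low and 11.05 UMIs in sterol-high cells of the library labelled WT. In the library labelled IPKO it was 1.03 and 12.4 UMIs. Both groups were cut from a continuous score, and ratios are shown with no test.

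All 14 sterol genes were higher by a log2 ratio of 0.32 or more in sterol-high cells of both libraries, with medians of 1.82 and 1.87 and ranges of 1.14 to 2.18 and 1.30 to 2.58. Of all other genes 10.8% and 8.94% were higher by that fold, with medians of 0.02 and 0. Mvd stood apart most, at 10.4 and 46.9 CPM in sterol-low and sterol-high cells of the library labelled WT and at 10.7 and 64.0 CPM in the library labelled IPKO. Hmgcs1 was at 79.0 and 241 CPM and at 83.8 and 323 CPM. Sc5d, the sterol desaturase, had the smallest ratios, at 17.0 and 37.5 CPM and at 17.0 and 41.9 CPM. Of the 7 other sterol synthesis genes, which were not used to order the cells, 5 were higher in each library. Stard4, a sterol carrier, had ratios of 0.96 and 1.13. The exporter Abca1, which is switched on by sterol excess, went the other way at -1.11 and -1.14.

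The regulators split along this axis. Insig1 was at 90.9 and 165 CPM in sterol-low and sterol-high cells of the library labelled WT and at 84.9 and 210 CPM in the library labelled IPKO, ratios of 0.86 and 1.31. Srebf2 was at 67.2 and 99.4 CPM and at 62.9 and 89.5 CPM (0.57 and 0.51). Srebf1 was level at 88.2 and 79.0 CPM and at 88.2 and 88.8 CPM.

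Fatty acid genes followed the sterol genes less steeply, as 8 of 9 were higher in each library, with medians of 0.55 and 0.58. Scd1 was at 5830 and 10288 CPM in sterol-low and sterol-high cells of the library labelled WT and at 3880 and 9256 CPM in the library labelled IPKO. Scd2 had ratios of 0.78 and 0.99, and Fads1 of 0.68 and 1.09. Acss2, which makes acetyl-CoA from acetate and is no member, had ratios of 1.95 and 1.92. In the phospholipid arm Pcyt1a and Chka, both of the CDP-choline route, were on the other side of 0. Pcyt1a was at 49.7 and 34.5 CPM and at 67.5 and 56.4 CPM (-0.53 and -0.26), and Chka at 227 and 165 CPM and at 222 and 166 CPM (-0.46 and -0.42). Pcyt2, which serves the same step for phosphatidylethanolamine, had ratios of 0.98 and 1.17. Fabp5 was at 1103 and 1955 CPM and at 1136 and 2798 CPM (0.83 and 1.30). Plin2 had ratios of 0.63 and 0.11, and Cpt1a of -0.16 and -0.18.

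**Figure D5:**
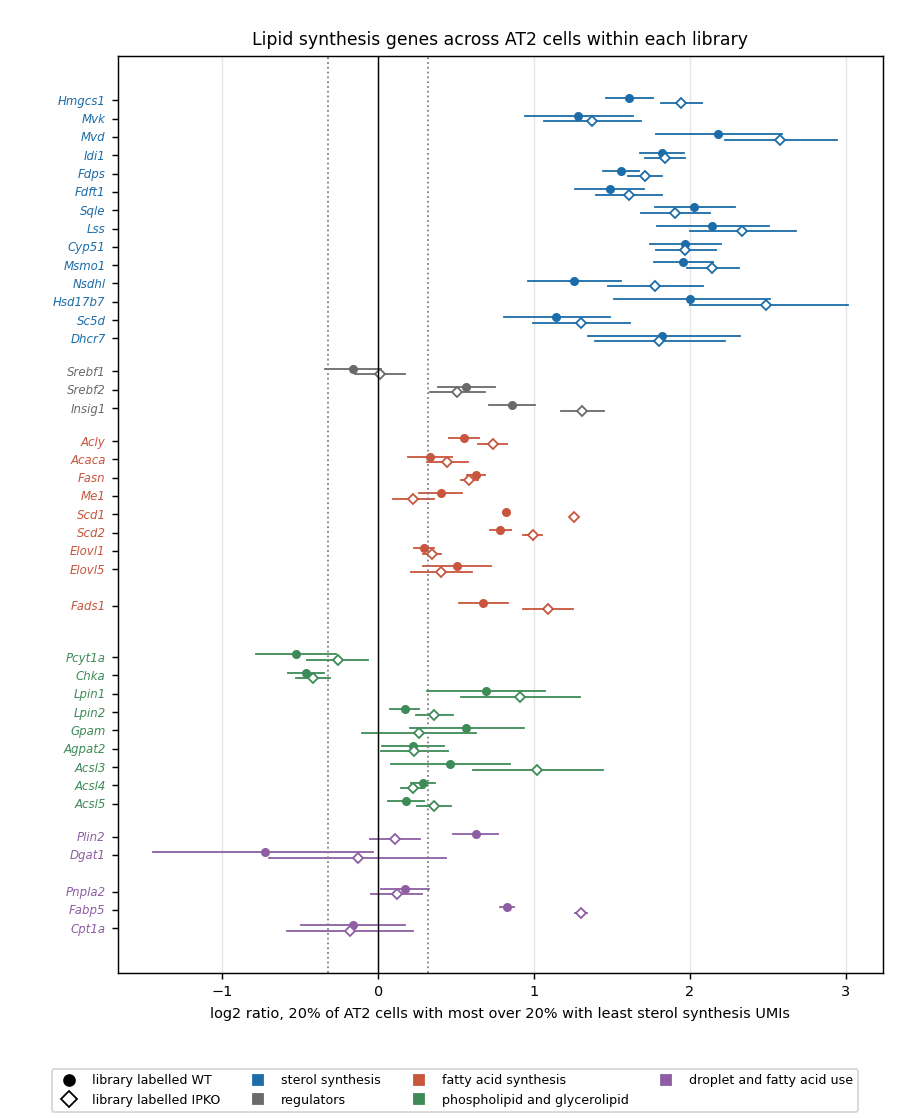
The log2 ratio of each gene between the 20% of AT2 cells with the most and the 20% with the least UMIs of the other sterol synthesis genes, after thinning to 5000 UMIs per cell, with filled circles for the library labelled WT, open diamonds for the library labelled IPKO, 95% counting intervals as bars and dotted lines at a log2 ratio of 0.32 either way. All 14 sterol synthesis genes lie at 1.14 or above, and Pcyt1a and Chka lie below 0 in both libraries.

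Ordering the cells by the fatty acid synthesis genes gave the same pairing from the other side. That order rested mostly on Scd1, except where Scd1 itself was read. In AT2 cells Scd1 was at 8238 of the arm's 11177 CPM (library labelled WT) and 6286 of 9163 CPM (library labelled IPKO). All 9 fatty acid genes were higher in the 20% of cells with the most fatty acid UMIs in both libraries (medians 0.78 and 0.94), and so were all 14 sterol genes (1.32 and 1.37), against 15% and 12.8% of all other genes. The arm's summed UMIs, with cells ordered by the whole arm, differ by construction. They were 24.0 and 95.2 per cell in the lowest and highest 20% of cells of the library labelled WT. In the library labelled IPKO they were 16.7 and 87.0. Fabp5 had ratios of 1.06 and 1.87. Pcyt1a had -0.58 and -0.43, and Chka -0.61 and -0.47. The cells compared also differed in other measures. For the fatty acid order the median total before thinning was 17130 and 19759 UMIs in the lowest and highest 20% of cells of the library labelled WT and 16478 and 17821 UMIs in the library labelled IPKO. The mitochondrial share was 4.84% and 5.63% and 3.80% and 3.99%, the Sftpc share 22.7% and 19.0% and 22.2% and 19.6%, and the early response share 0.316% and 0.203% and 0.581% and 0.444%. For the sterol order the median share of early response genes was 0.304% and 0.208% of UMIs in sterol-low and sterol-high cells of the library labelled WT and 0.580% and 0.468% in the library labelled IPKO. The median total before thinning was 17908 and 19085 UMIs and 16772 and 17402 UMIs, and the mitochondrial share 5.23% and 5.30% and 3.97% and 3.87%. The part of these measures in the pattern was not tested.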

How the data were processed

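The authors deposited unnormalised UMI counts for every gene in every called barcode. Per the file headers these were written by Cell Ranger 4.0.0, which the submitters' processing notes also name, with GRCm38 (mm10) as the build. The release of the annotation was not given in the sources used here. Libraries were made with a 10x 3' kit per the labels' protocols. Barcodes totalled 8924 in the library labelled WT (127287281 UMIs) and 10014 in the library labelled IPKO (137471506 UMIs). The 6745 and 8072 barcodes with at least 500 genes and at most 20% mitochondrial UMIs were kept. No doublet caller was run; removing the 8% of cells with most UMIs was an alternative. Droplets without cells were not used here.

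Keratin-high cells had at least 3000 UMIs. Counts were summed per class and library and divided by the summed UMIs (CPM). Intervals are exact Poisson for levels and exact conditional binomial for ratios, at 95%. An upper limit for a count of 0 is 3 counts. Log2 ratios are of CPM without a pseudocount. Code ran in Python 3.11.15 with numpy 2.4.6, scipy 1.17.1 and pandas 2.3.3 and was tested on simulated data. TMM factors, an alternative scaling, came from edgeR 4.0.16.

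The members and lists were chosen with earlier results of these data known, so nothing here is independent support for a pattern already seen in them. Members named with values were those with a log2 ratio of 0.32 or more, either way, between the libraries in AT2 cells, those past it in both libraries between the cell classes, the 3 regulators and the member with most UMIs of each arm. Of the other pathway genes, those named were up to 2 of the highest and 2 of the lowest ratios per list, and the values of some of these genes are not reported here. Other names, the printed promoters and the immune or endothelial reference cells were chosen after the values were seen. Of the alternatives, 13 were planned and 2 were added after seeing the data: barring markers without Tppp3, Dynlrb2 and Egfl7, which AT2 cells also carry, and keratin-high cells restricted to Sftpc at 10% or more.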

Additional observations from a re-analysis of the deposited data

Results flagged for a closer look

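Mvd, the mevalonate diphosphate decarboxylase, was higher in the library labelled IPKO in AT2 cells, with a log2 ratio of 0.37, and lower in keratin-high cells, with -0.35. These opposite directions of at least 0.32 in size drew attention to it. The interval in keratin-high cells ran from -0.85 to 0.14 and held 0, and the difference between the cell classes was not tested, since each library is 1 sample.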

How the results depend on the processing

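No paired analysis was possible because each group is 1 library. Under the alternatives, counts of members higher or lower in a comparison stayed within 1.5 times the count given in 80 cases and moved further in 14. The alternatives were run for the arm medians, for the 8 members counted between the libraries in AT2 cells and for the 17 lower in both libraries in keratin-high cells. None of these members' ratios changed sign, while the arm medians that did are given in the report. Ratios of other named members were not run under the alternatives. With a mark of 1.5-fold, members higher and lower between the libraries numbered 0 and 2 in AT2 cells and 2 and 3 in keratin-high cells, while members lower in keratin-high than in AT2 cells numbered 13 in the library labelled WT and 15 in the library labelled IPKO, with 0 higher in the latter. In AT2 cells 1 member was higher with scaling by median of ratios and 1 with TMM, and 5 in the 50% of cells with the least early response RNA. Between the libraries in keratin-high cells, 5 members were higher among genes at 20 CPM or more, 4 were higher without Tppp3, Dynlrb2 and Egfl7 as barring markers, and 5 were lower without the 8% of cells with most UMIs. Without those 3 barring markers, 2 members were higher than in AT2 cells in the library labelled IPKO. TMM shifted all log2 ratios of keratin-high over AT2 cells down by 0.13 in the library labelled WT and 0.11 in the library labelled IPKO. A planned keratin-high class with Sftpc under 10% and a keratin share of at least 0.5% held 0 cells in both libraries and was not run. Depth limits the keratin-high classes most: members near 10 CPM there rest on few UMIs.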
